A study of Mus musculus with 6 samples.

Results

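Pappa, Pappa2, Stc1 and Stc2 encode 2 pappalysins and 2 stanniocalcins, the proteases that cut insulin-like growth factor (IGF) binding proteins and the secreted inhibitors of those proteases. They are 4 of the 24346 gene symbols measured in chondrocytes from the spheno-occipital synchondrosis of mice, a growth cartilage of the cranial base. The 4 genes were chosen by family name, with the FP against RR differences of these same libraries already known. Their differences between the groups are therefore given as a description, as values with their errors, and no p-value or call is reported for them.

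The series asks how flat and round chondrocytes of this cartilage differ in gene expression. RNA-seq libraries were made from layers taken by laser microdissection from frozen sections of cartilage labelled as basilar. There were 3 libraries with the title code FP and 3 with the code RR, numbered 11, 14 and 16 in both groups, and no label spells out the codes. All mice of both groups carried Gli1CreERT2 (a tamoxifen-dependent Cre recombinase expressed from the Gli1 gene) and Tomato flox (a Cre-dependent fluorescent reporter), and tamoxifen was given to all of them on postnatal day 3. No label states the age at collection or that libraries came from separate mice, so p-values measure only the spread between these libraries, which may be technical. In these bulk captures, fewer cells of a type and less RNA per cell cannot be told apart.

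IGFs in cartilage are held by binding proteins, which keep them from their receptor. PAPP-A, the product of Pappa, is a secreted metalloprotease that cleaves the binding protein of Igfbp4 in particular, and also those of Igfbp2 and Igfbp5, and so frees the growth factor. PAPP-A2, the product of Pappa2, cleaves those of Igfbp3 and Igfbp5. The stanniocalcins are secreted glycoproteins that bind PAPP-A and PAPP-A2 and block their activity. Mice that lack PAPP-A, or that overproduce either stanniocalcin, are small.

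Both pappalysin genes were lower in FP than in RR, Pappa 7.52-fold and Pappa2 3.80-fold by the ratio of mean FPKM (fragments per kilobase of transcript, scaled to the library's fragments). Stc2 was 8.28-fold higher in FP. Stc1 was low everywhere, with overlapping groups. By FPKM the FP libraries thus held more stanniocalcin than pappalysin message and the RR libraries the reverse, in 6 of 6 libraries.

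**Figure D1:**
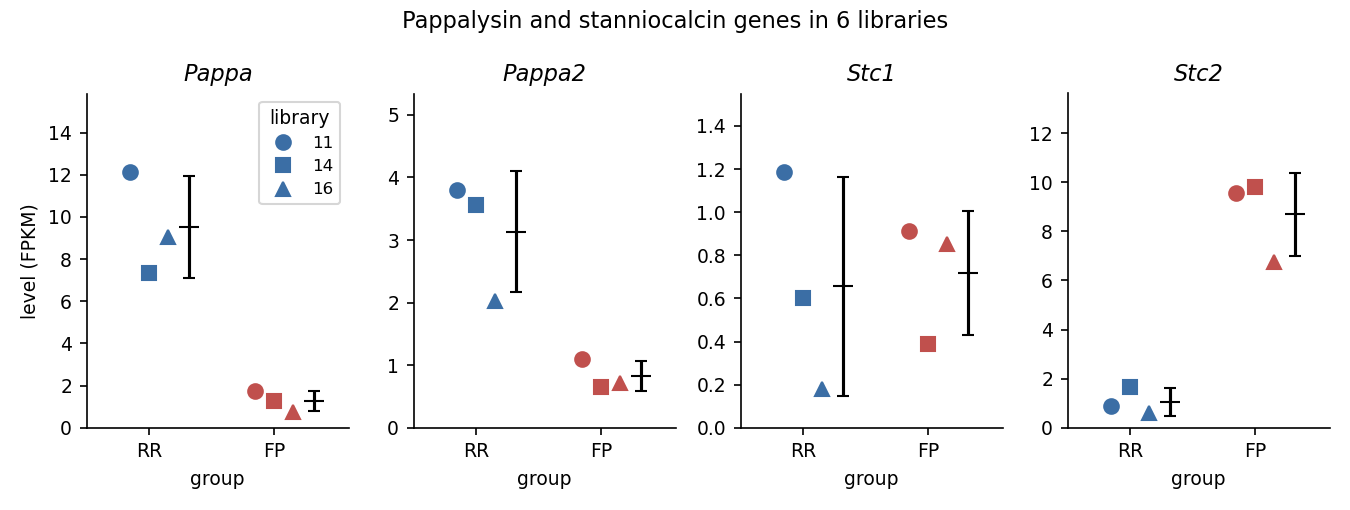
Level in FPKM (vertical axis, starting at 0, scaled for each gene) of the 4 genes in the RR (blue) and FP (red) libraries, with symbols for library numbers 11, 14 and 16 and black bars for mean ± SD (n = 3). Pappa and Pappa2 were higher in each RR library than in any FP library, Stc2 was higher in each FP library than in any RR library, and Stc1 overlapped between the groups.

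Values were compared as log2(FPKM + 1) with limma, for the 14789 genes whose 6 libraries averaged 1 FPKM or more, and a gene was called when its Benjamini-Hochberg adjusted p fell below 0.05. Of all tested genes, 0.554% were called higher and 0.412% lower in FP. A further description is whether the groups overlap: in 8.74% of tested genes all FP libraries lay above all RR libraries, and in 7.28% all lay below. Of the 4 members, 1 had all FP libraries above RR (Stc2), 2 had all FP libraries below RR (Pappa and Pappa2) and 1 overlapped (Stc1). The members were chosen with this contrast known, so nothing is read from these counts. Stc1, with a mean of 0.687 FPKM, was below the filter, and 3 members passed it. Pappa2 passed it through its RR values (mean 3.13 FPKM, against 0.825 FPKM in FP).

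Depth was read from low values, since FPKM times transcript length falls on steps of 1 fragment. On a transcript of 2000 bases, 1 fragment was worth 0.130 to 0.299 FPKM, and the range of depth between libraries was 2.31-fold, provided that the authors applied no further scaling between them. Of low values, 75.0% to 79.0% were whole fragments within a tolerance of 0.1, against 20% by chance for a fixed step. The step and the bases taken off each length were chosen in each library to fit these same values best. A chosen step would exceed 20% by chance too, so the gap is not a test. All 9 of the 10 listed chondrocyte markers that the files hold (Col2a1, Acan, Sox9 and others) were detected in every library, and their summed level, most of it Col2a1, was 51510 to 84760 FPKM in FP and 42940 to 88540 FPKM in RR. Below that sum the list leaned towards FP: 9 of 9 had a positive log2 difference (median 0.94), 5 had all FP libraries above RR, 5 were at an unadjusted p under 0.05 and 1 was called higher, Comp, a cartilage matrix gene at 2589 ± 190 FPKM in FP and 221 ± 61.6 FPKM in RR (SD, n = 3 each). The 6 hypertrophic markers, among them Col10a1 and Ihh, were all called higher in FP, with summed levels of 965 to 1121 FPKM in FP and 111 to 167 FPKM in RR, and 2 of them were listed at 0 in an RR library. The 6 resting chondrocyte markers were all called lower, with sums of 192 to 291 FPKM in FP and 2760 to 3661 FPKM in RR. The members differ between the same libraries, and the part of these chondrocyte stages in the members' values was not tested. These marker lists were drawn up with earlier results of these data known.

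Pappa is the gene of the protease PAPP-A. On mm10 it lies on the plus strand of chromosome 4 (65124174 to 65357509, GENCODE M21, ENSMUSG00000028370.7), with 22 exons in a coding transcript of 11027 bases. It was at 12.1, 7.35 and 9.05 FPKM in RR libraries 11, 14 and 16. In FP libraries 11, 14 and 16 it was at 1.75, 1.27 and 0.774 FPKM. The lowest RR library was 4.21 times the highest FP library. Means were 9.50 ± 2.42 FPKM in RR and 1.26 ± 0.486 FPKM in FP (SD, n = 3 each), a log2 difference of -2.21 ± 0.30 (SE), FP minus RR. Counting Pappa, 69 of the 14789 tested genes had a difference at least as far down. Its fragments were an estimated 149 to 371 per library in RR, the most of the 4 genes there, and 25.3 to 81.1 in FP. Counting error alone puts the ratio of RR to FP, over summed fragments, at 7.35 (95% interval 6.12 to 8.88, exact).

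Leaving out 1 library at a time, the log2 difference of Pappa ran from -2.37 to -2.04, and with a pseudocount of 0.1 FPKM it was -2.85.

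Pappa2 encodes the second pappalysin, PAPP-A2. The gene lies on the minus strand of chromosome 1 (158711727 to 158980490, ENSMUSG00000073530.11) and has a coding transcript of 9518 bases in 22 exons. The gene 1600012P17Rik (158967701 to 158980463) overlaps it on the same strand and is not among the symbols of the files. Its levels in RR libraries 11, 14 and 16 were 3.81, 3.56 and 2.03 FPKM, and those in FP libraries 11, 14 and 16 were 1.10, 0.656 and 0.720 FPKM. The groups did not overlap, although RR 16 was only 1.84 times FP 11. The log2 difference was -1.16 ± 0.34 (SE), and leaving out 1 library at a time it ran from -1.37 to -1.03. Counting Pappa2, 423 of the 14789 tested genes had a difference at least as far down. Fragments were an estimated 59.7 to 100 per library in RR and 13.3 to 44.0 in FP, which puts the ratio of RR to FP at 3.48 (95% counting interval 2.67 to 4.56, exact). In both groups the library numbered 11 was the highest for Pappa and for Pappa2.

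Within a library, values per length can be compared between genes as far as the lengths used are right. No source used here names those lengths, and coverage along the transcripts was not checked. Pappa exceeded Pappa2 in 6 of 6 libraries, 2.06-fold to 4.46-fold in RR and 1.08-fold to 1.94-fold in FP. Pappa made up 67.3% to 81.7% of the summed pappalysin FPKM in RR and 51.8% to 65.9% in FP. In FP 16 the 2 genes were nearly level, at 0.774 and 0.720 FPKM.

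Stc2 encodes stanniocalcin 2, which binds PAPP-A covalently and stops its activity. The gene lies on the minus strand of chromosome 11 (31357307 to 31370074, ENSMUSG00000020303.2) and has 4 exons. It was at 9.56, 9.79 and 6.74 FPKM in FP libraries 11, 14 and 16. In RR libraries 11, 14 and 16 it was at 0.882, 1.68 and 0.594 FPKM. Each FP library was thus at least 4.02 times any RR library. Means were 8.70 ± 1.70 FPKM in FP and 1.05 ± 0.561 FPKM in RR (SD, n = 3 each), a log2 difference of 2.26 ± 0.31 (SE). Counting Stc2, 85 of the 14789 tested genes had a difference at least as far up.

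The low RR values of Stc2 rest on very few fragments. With the exons inside the RefSeq gene span (1793 bases), the RR values came to 4.0, 5.0 and 3.0 fragments and the FP values to 65.4, 33.5 and 32. With the full GENCODE transcript of 3940 bases, the RR values came to 9.3, 11.7 and 7.0. Of these, 9.3 and 11.7 are further from whole numbers and 7.0 is not. No source used here names the annotation behind the deposited values. Over summed fragments (131 in FP, 12 in RR, the shorter length), the ratio of FP to RR was 9.09 with a 95% counting interval of 5.03 to 18.04 (exact). At these counts the size of the difference is loosely bounded. Leaving out 1 library at a time, the log2 difference of Stc2 ran from 2.095 to 2.47, and with a pseudocount of 0.1 FPKM it was 3.03.

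Stc2 is known as a gene induced by low oxygen, through HIF factors, and by the ATF4 arm of the stress response. Its proximal promoter is shown because it is the member that was higher in FP and because those factors bind short, known letters. The run is the minus strand of chr11:31370075-31370311 (RefSeq window, GRCm38.p6), 5′ to 3′, and ends at the base before the GENCODE transcript start. Capitals mark matches to the HIF core GCGTG on either strand.

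Stc2: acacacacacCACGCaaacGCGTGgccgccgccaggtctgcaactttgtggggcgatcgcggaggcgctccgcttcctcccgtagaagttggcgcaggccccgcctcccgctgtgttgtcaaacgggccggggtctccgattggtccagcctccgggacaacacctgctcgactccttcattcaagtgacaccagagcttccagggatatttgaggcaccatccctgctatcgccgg

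The 2 matches lie 227 and 218 bases before the transcript start, 1 on each strand. GCGTG is common: 28.2% of the 32851 windows of 250 bases before a RefSeq start hold it on at least 1 strand. The other HIF core, ACGTG (16.6% of windows), and the ATF4 composite element TGATGNAAN (3.44% of windows) have no match in the Stc2 window. RefSeq windows matched 2 of the 4 members, Stc2 and Pappa2. The Pappa2 window holds 1 match to GCGTG and 0 to the other letters. A match is a string of letters and not evidence of binding.

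Stc1 encodes stanniocalcin 1, the paralog of Stc2. The gene lies on the plus strand of chromosome 14 (69029238 to 69041804, ENSMUSG00000014813.9), has 4 exons, and overlaps Gm41192 (69019434 to 69029652) on the opposite strand at its start. No source used here says whether counting used strand, so reads of the 2 genes may not have been told apart. Stc1 was at 0.912, 0.388 and 0.852 FPKM in FP libraries 11, 14 and 16 and at 1.19, 0.603 and 0.178 FPKM in RR libraries 11, 14 and 16. The highest and the lowest of the 6 values were both from RR. These values came to only 13.9, 3.0 and 9.1 fragments in FP and 11.9, 4.0 and 2.0 in RR, with the exons inside the RefSeq span (3743 bases). The log2 difference was 0.08, and over summed fragments (26 and 18) the ratio of FP to RR was 1.20 with a 95% counting interval of 0.633 to 2.32 (exact). The interval includes equal levels and covers counting error only, so a difference in Stc1 was neither shown nor excluded at this depth.

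The order of the 4 levels differed between the groups. In RR it was Pappa above Pappa2 above both stanniocalcins in 3 of 3 libraries. Stc1 and Stc2 did not separate in RR: Stc1 was the higher in RR 11 and Stc2 in RR 14 and RR 16. In FP, Stc2 was the highest in 3 of 3 libraries, at 5.48 to 8.71 times Pappa. Below Stc2, Pappa exceeded Pappa2 within each FP library, 1.08-fold to 1.94-fold. Stc1 was the lowest in FP 11 and FP 14 and above both pappalysins in FP 16. Over the FP libraries the spreads of Pappa, Pappa2 and Stc1 overlapped, at means of 1.26 ± 0.486, 0.825 ± 0.240 and 0.717 ± 0.287 FPKM (SD, n = 3 each). Stc2 was 7.91 to 25.2 times Stc1 in FP.

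Summed over each family, the pappalysins were at 15.9, 10.9 and 11.1 FPKM in RR libraries 11, 14 and 16 and at 2.85, 1.93 and 1.49 FPKM in FP. The stanniocalcins were at 2.07, 2.28 and 0.771 FPKM in RR and at 10.5, 10.2 and 7.59 FPKM in FP. The ratio of pappalysins to stanniocalcins ran from 4.79 to 14.4 in RR and from 0.189 to 0.272 in FP. The groups are far apart on this ratio. It is built from the values that were known when the genes were chosen, and it concerns messages, not protease activity.

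**Figure D2:**
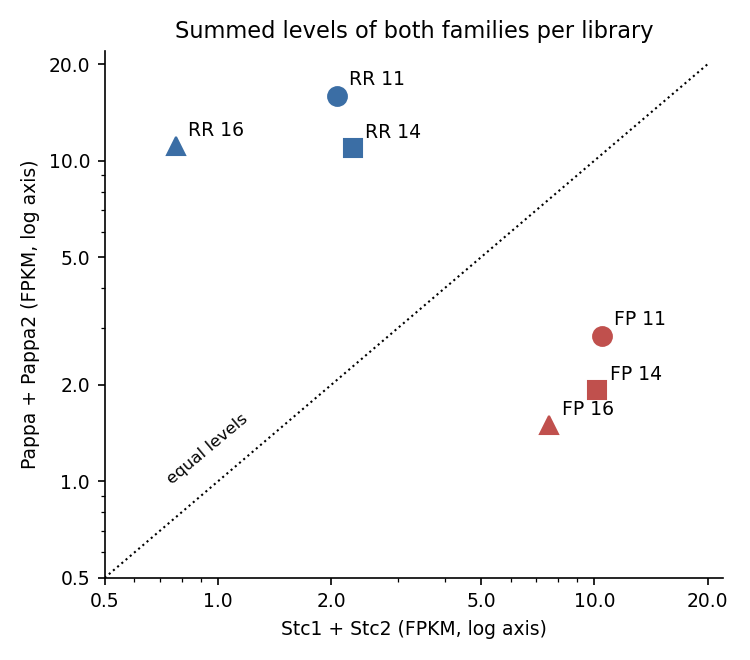
Summed level of Stc1 and Stc2 (horizontal axis) against that of Pappa and Pappa2 (vertical axis) in each library, in FPKM on log axes, with RR in blue, FP in red and a dotted line where both sums are equal. The 3 RR libraries lie above the line, at ratios of 4.79 to 14.4, and the 3 FP libraries below it, at 0.189 to 0.272.

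The other genes that set how much IGF is available were taken from lists of 20 genes, of which 18 were tested: 0 were called higher and 2 lower in FP. The 2 were Igf1, the ligand, and Igfbp4, whose product is the main substrate of PAPP-A. The median log2 difference of the 18 was 0.01, beside 0.02 over all tested genes. Of the 18, 4 (22.2%) were at an unadjusted p under 0.05 in limma, beside 10.3% of all tested genes. In 3 of the 18 all FP libraries lay above RR and in 3 all lay below, beside 8.74% and 7.28% of all tested genes.

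Igfbp4 was at 113, 83.0 and 159 FPKM in RR libraries 11, 14 and 16 and at 20.7, 23.3 and 15.5 FPKM in FP libraries 11, 14 and 16. The groups did not overlap, and the log2 difference was -2.49 ± 0.32 (limma adjusted p = 0.0113). The call was lost without FP 16 (limma adjusted p = 0.0828), and over all 16 alternatives adjusted p ran from 0.00500 to 0.213. Igf1 was at 37.9, 30.5 and 40.02 FPKM in RR and at 6.36, 1.62 and 1.51 FPKM in FP, a log2 difference of -3.34 ± 0.42 (limma adjusted p = 0.0112), and was lost without FP 16 or RR 16 (0.0556 and 0.0602, with 0.00224 to 0.259 over all alternatives). FP 11 stood above the other FP libraries for Igf1. In GENCODE M21 the antisense genes Igf1os and Igf2os overlap the 2 ligand genes, so their values share the limit on strand.

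Igf2, the second ligand, was by far the more abundant, at 418 ± 105 FPKM in FP and 492 ± 163 FPKM in RR (SD, n = 3 each). Its log2 difference was -0.21 ± 0.35 (SE, limma adjusted p = 0.906). Igf2 was 9.96 to 17.0 times Igf1 in RR libraries and 50.6 to 350.5 times in FP libraries.

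None of the other binding protein genes tested was called. Igfbp5, cut by both proteases, was at 22.4 ± 15.4 FPKM in FP and 20.3 ± 10.5 FPKM in RR (log2 difference 0.09 ± 0.56). Igfbp3, a substrate of PAPP-A2, was at 2.27 ± 0.944 and 2.07 ± 1.07 FPKM, and Igfbp2 at 2.32 ± 0.773 and 1.26 ± 0.152 FPKM, with log2 differences of 0.11 ± 0.38 and 0.53 ± 0.34. Igfbp6, which prefers Igf2, was at 3.12 ± 2.42 and 1.21 ± 0.310 FPKM. For Igfbp2 and Igfbp6 all 3 FP libraries lay above RR, which held for 8.74% of all tested genes. Over these 4 genes limma adjusted p ran from 0.645 to 0.983. The difference between Igfbp4 and the other binding proteins was not itself tested. Igfbp4 was 3.001 to 19.2 times Igfbp5 in RR libraries and 0.590 to 1.57 times in FP libraries. Igfbp1 and Igfals fell below the filter, with Igfbp1 listed at 0 in 4 libraries.

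Receptors and other proteases held no called gene. Of 5 receptor and receptor substrate genes 0 were called in limma (1 at an unadjusted p under 0.05): Irs1, a docking protein of the IGF receptor, was at 53.4 ± 1.24 FPKM in FP and 33.8 ± 7.91 FPKM in RR (limma adjusted p = 0.420), and Igf1r, the receptor itself, at 11.6 ± 0.906 and 9.68 ± 2.78 FPKM. Of 5 other proteases of IGF binding proteins 0 were called (0 at an unadjusted p under 0.05). Among them Htra3, a secreted serine protease, was at 45.1 ± 6.53 and 35.4 ± 14.6 FPKM, and Adam12, a metalloprotease, at 5.28 ± 0.276 and 7.74 ± 2.09 FPKM. Both thus exceeded Pappa in FP.

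Prg2 encodes the proform of eosinophil major basic protein, which also inhibits PAPP-A in some tissues. It was at 4.41, 3.35 and 2.97 FPKM in RR libraries 11, 14 and 16 and at 0.725, 0.720 and 3.16 FPKM in FP libraries 11, 14 and 16 (limma adjusted p = 0.463), so FP 16 lay within the RR range. Epx, an eosinophil peroxidase gene, was at 2.54, 2.36 and 0.885 FPKM in RR and at 0.278, 0.736 and 2.15 FPKM in FP. FP 16 was again apart from the other FP libraries. Epx was picked from the marrow list after its values were seen, and the list did not move as one. Of its 7 tested genes 5 had a positive log2 difference (median 0.79), against -0.56 for Epx and -1.39 for Mpo. Mpo was at 18.6, 3.41 and 2.95 FPKM in RR and at 2.07, 0.586 and 2.86 FPKM in FP. In FP libraries 11, 14 and 16 Lyz2 was at 6.74, 6.96 and 76.4 FPKM and S100a9 at 26.7, 33.0 and 8.39 FPKM. In RR libraries 11, 14 and 16 Lyz2 was at 41.8, 0 and 11.4 FPKM and S100a9 at 232, 0 and 4.93 FPKM. The log2 difference of S100a9 was thus positive (0.89), although its mean FPKM was higher in RR (78.9 against 22.7). The part of marrow cells in the Prg2 values was not tested.

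**Figure D3:**
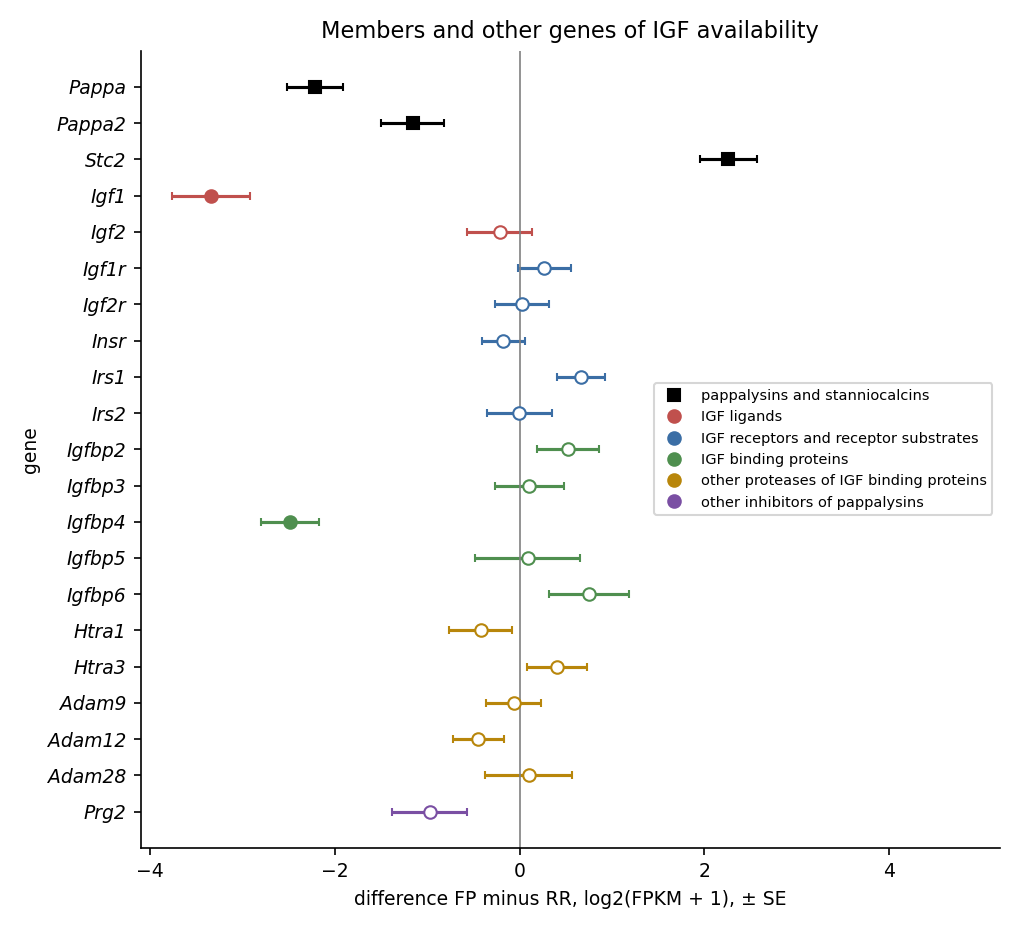
Difference FP minus RR on the log2(FPKM + 1) scale (horizontal axis) with its SE for the 3 tested members and 18 other tested genes of IGF availability, coloured by list; among the other genes filled circles were called and open circles were not, and the members are squares with no call shown. Igf1, Igfbp4 and Pappa stand to the left, at -3.34, -2.49 and -2.21, and Stc2 to the right, at 2.26.

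Because Stc2 is known to respond to low oxygen and to ATF4, genes of those responses were read beside it. Of 19 tested genes 0 were called in limma (3, or 15.8%, at an unadjusted p under 0.05, beside 10.3% of all tested genes). Of 10 tested hypoxia response genes the median log2 difference was 0.26. Ankrd37, a HIF target, was at 3.94, 7.83 and 2.39 FPKM in FP libraries 11, 14 and 16 and at 0.499, 1.52 and 0.896 FPKM in RR (log2 difference 1.45 ± 0.42, limma adjusted p = 0.220). Ndrg1, another target, pointed the other way, at 2.49 ± 1.65 FPKM in FP and 4.46 ± 0.667 FPKM in RR.

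Of 9 tested ATF4 and ER stress genes the median log2 difference was 0.41. By their estimate 8 were higher in FP, beside 7634 of all 14789 tested genes. Some of these estimates were within their SE of 0: Asns at 0.02 ± 0.34, Ddit3 at 0.07 ± 0.32 and Sesn2 at 0.29 ± 0.44. Trib3 was at -0.16 ± 0.41, and Atf4 itself at 0.67 ± 0.32. Xbp1, a transcription factor of the unfolded protein response, was at 40.1 ± 1.70 FPKM in FP and 20.3 ± 5.71 FPKM in RR (limma adjusted p = 0.206), and Herpud1, a protein of ER-associated degradation, at 59.7 ± 9.10 and 37.3 ± 6.54 FPKM (limma adjusted p = 0.435). The part of these responses in the Stc2 level was not tested.

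Markers of other cell types were read beside the members, since fibroblasts and bone cells can express them. Of 8 perichondrium and fibroblast markers 0 were called (1 at an unadjusted p under 0.05), with a summed level of 186 to 702 FPKM in FP and 165 to 1195 FPKM in RR, and none was at 0. By their estimates 5 of the 8 were higher in FP, with a median log2 difference of 0.14. Groups overlapped for each of the 8 but Pdgfra, which was lower in each FP library than in any RR library, at 6.75, 7.14 and 6.53 FPKM against 16.3, 9.07 and 13.8 FPKM. Of 6 endothelial markers 0 were called (0 at an unadjusted p under 0.05), with sums of 7.63 to 14.5 FPKM in FP and 6.05 to 22.3 FPKM in RR. Osteoblast markers summed to 135 to 246 FPKM in FP and 16.8 to 101 FPKM in RR, with 1 of 6 called, Sp7, and 2 at an unadjusted p under 0.05. In FP most of that sum was Ibsp, the bone sialoprotein gene, at 138, 191 and 90.8 FPKM in FP libraries 11, 14 and 16 and at 41.6, 10.7 and 7.18 FPKM in RR (limma adjusted p = 0.0571). Groups overlapped for the other 4, Bglap, Bglap2, Dmp1 and Ifitm5, and Bglap and Bglap2 were listed at 0 in some library. Osteoclast, muscle and marrow lists held 0 called genes (0, 2 and 0 at an unadjusted p under 0.05). The osteoclast markers summed to 10.9 to 112 FPKM in FP and 17.1 to 118 FPKM in RR. The muscle markers had a positive log2 difference in 8 of 8 (median 1.18) and summed to 119 to 205 FPKM in FP and 32.8 to 198 FPKM in RR, and the marrow markers to 125 to 210 FPKM and 52.3 to 514 FPKM. Within RR, library 11 held the most Col1a1, at 1077 FPKM against 185 and 107 FPKM in RR 14 and RR 16. The same held for Bglap (32.5 against 0 and 0.651 FPKM) and S100a9 (232 against 0 and 4.93 FPKM). The endothelial gene Cdh5 was lowest there, at 0.927 against 5.22 and 6.07 FPKM. These genes were picked after their values were seen. RR 11 was also the highest RR library for Pappa, Pappa2 and Stc1, but not for Stc2. The part of these cells in the members' values was not tested.

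For each member, the 3 genes with the most similar pattern were taken by Pearson's correlation of log2(FPKM + 1) over the 6 libraries, among 6543 named genes averaging 5 FPKM or more. With 6 libraries in 2 groups such correlations are high for many genes, so they describe these libraries only. The genes nearest to Pappa were Thbs1 (r = 0.993), a thrombospondin gene, Cpxm1 (0.993) and Dcn (0.991), the decorin gene. Thbs1 was at 380 ± 61.9 FPKM in FP and 1214 ± 157 FPKM in RR, and Dcn at 51.9 ± 11.8 and 216 ± 73.9 FPKM. The nearest to Pappa2 were Ifi30 (0.973), a lysosomal thiol reductase gene, Rian (0.965), an imprinted noncoding RNA, and Efemp1 (0.963), the fibulin 3 gene.

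The nearest to Stc2 were Rbm28 (0.999), Stim2 (0.995), a calcium sensor gene of the ER, and Lama4 (0.992), a laminin chain gene at 11.7 ± 1.77 FPKM in FP and 3.88 ± 0.282 FPKM in RR. Rbm28 matched the shape but not the size, at 8.28 ± 0.549 and 5.04 ± 0.512 FPKM. Stc1 rests on an estimated 2.0 to 11.9 fragments per library in RR and 3.0 to 13.9 in FP, so much of its pattern may be counting error. The nearest to Stc1 were Hbp1 (0.980), Lsm6 (0.972) and Slc35b4 (0.965). These overlapped between the groups as Stc1 did, which follows from picking them for likeness to it. Hbp1, for example, was at 7.76 ± 1.09 FPKM in FP and 7.25 ± 2.82 FPKM in RR.

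**Figure D4:**
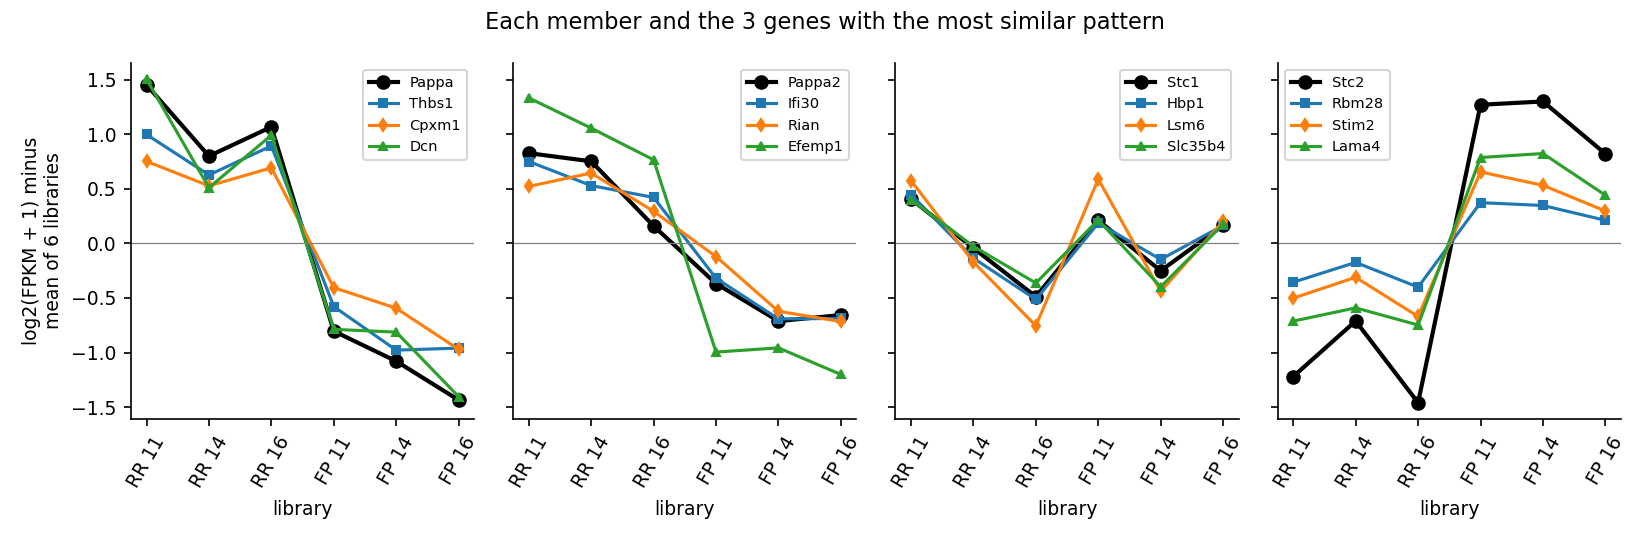
Level on the log2(FPKM + 1) scale, minus its mean over the 6 libraries (vertical axis), of each member (black) and its 3 nearest genes (colours) in each library, with lines that only guide the eye. Pappa and Pappa2 and their neighbours are high in RR and low in FP, Stc2 and its neighbours the reverse, and Stc1 follows neither pattern. That neighbours share the pattern of their member follows from how they were picked.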

How the data were processed

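The authors deposited FPKM values, with each library in its own file, per the file headers. The submitters' processing notes name Cuffdiff 2.2.1, TopHat2 2.1.1, SAMtools 0.1.18 and Bowtie2 2.2.8 and the build mm10, without their roles. No source used here gives the annotation, strand use or scaling between libraries. From these, log2(FPKM + 1) was modelled by group with limma 3.58.1 (R 4.3.3), with moderated variances that follow the mean level. The tests were two-sided on FP minus RR. They covered 14789 genes averaging 1 FPKM or more, and p-values were adjusted over all of them by Benjamini-Hochberg. The fit was tested on 5 simulated sets with independent noise at the typical spread for each level. It called 31.6% of planted log2 changes of 1, 100% of those of 2, 3 and 4, and 0.0809% of unchanged genes. Changes were planted only in higher expressed genes, and deviations shared between libraries were not simulated, so real data can do worse. Fragments were estimated from the step of low FPKM values on transcripts of 1500 to 6000 bases (GENCODE M21); intervals on them cover counting error only. Named genes are the members, all IGF ligands and binding proteins, Prg2, the 2 genes with the smallest p of each other pathway list, and 3 nearest genes per member (predicted genes and small RNAs left out); others, such as Pdgfra, Epx, Comp and Ibsp, were chosen after their values were seen. The members and lists were chosen with earlier results of these data known. The alternatives were another pseudocount, filters, scalings, no intensity trend, a block for library number and leaving libraries out.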

Additional observations from a re-analysis of the deposited data

How the results depend on the processing

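With a pseudocount of 0.1 FPKM the log2 differences of Pappa, Pappa2 and Stc2 grew to -2.85, -1.79 and 3.03. Without 1 library they ran from -2.37 to -2.04, from -1.37 to -1.03 and from 2.095 to 2.47, and under all alternatives run they kept their sign. The groups do not overlap for these 3 genes, so leaving libraries out or changing the pseudocount could not change a sign. Nothing is read from the kept signs. Genes called over all tested genes numbered 143, and 83 without an intensity trend, 42 to 85 without 1 library, and 42, 8 and 20 without both libraries numbered 11, 14 and 16, a choice made after the data were seen. The called genes of the IGF lists numbered 2, then 0 to 2 without 1 library and 1, 0 and 0 without both libraries of those numbers; fewer samples enter these fits. With the library number as a replicate block 271 genes were called. Deviations of same-numbered libraries correlated at 0.319, 0.185 and 0.0890 for numbers 11, 14 and 16, each library correlating best with its own number, which is a hint from the data, and no label says that numbers pair samples. The block changed no count of calls in the IGF, hypoxia and stress lists. The values of Stc1 in all libraries and of Stc2 in RR are limited by depth.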
